A study of Mus musculus with 4 samples.

Results

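The claudins described here are 10 genes of the mouse kidney, Cldn1, Cldn2, Cldn3, Cldn4, Cldn5, Cldn7, Cldn8, Cldn10, Cldn16 and Cldn19, chosen by name from 54532 genes counted in each RNA-seq library. The libraries were made from whole kidneys of female C57BL/6J mice, 2 from wild type animals (WT) and 2 from animals lacking Zbp1 (Zbp1-KO), in which exons 2 to 8 had been removed by CRISPR-Cas9. The product of Zbp1 binds nucleic acids in the Z conformation and can start inflammatory cell death. Every animal had received 500 µL of pristane, a hydrocarbon oil that gives rise to a lupus-like disease, into the peritoneum when 8 weeks old, and the kidneys were collected 8 months after that. No kidney without pristane was analysed here, so the comparison is of genotype within treated animals. The wild type animals were purchased and not described as littermates. The sources do not say whether each library was 1 animal, so p-values measure only the spread between these libraries.

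Claudins are membrane proteins that polymerise into tight junction strands and set which ions and solutes pass between epithelial cells. Each nephron segment carries its own set: claudin 2 and the anion-selective form of claudin 10 in the proximal tubule, claudins 16 and 19 and the cation-selective form of claudin 10 in the thick ascending limb, and claudins 3, 4, 7 and 8 in the distal nephron and collecting duct. Claudin 1 is known from the parietal epithelium of Bowman's capsule, and claudin 5 from vascular endothelium and podocytes. In whole-kidney RNA, fewer cells of a type and less RNA per cell cannot be told apart.

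The members lie on 6 chromosomes of GRCm38 (mm10). Cldn3 (chr5:134986214-134987472, plus strand) and Cldn4 (chr5:134945119-134946934, minus strand) are neighbours 39279 bases apart. Cldn1 (chr16:26356642-26371841, minus strand) and Cldn16 (chr16:26463135-26482765, plus strand) are 91293 bases apart. Cldn5 (chr16:18776847-18778262, plus strand) and Cldn8 (chr16:88560828-88563183, minus strand) are elsewhere on the same chromosome. The others are Cldn2 (chrX:139800828-139811386), Cldn7 (chr11:69964779-69967885), Cldn10 (chr14:118787908-118875489) and Cldn19 (chr4:119255414-119262438), all on the plus strand. Cldn3, Cldn4, Cldn5 and Cldn8 have a single exon. Over the 45 pairs of coding sequences, identity ranged from 54.3% to 73.5%, with a median of 58.9%. Cldn3 and Cldn4 were the closest pair, and their longest identical stretch was 35 bases, against reads of 150 bases. Cldn10 has 2 start regions, which encode the forms with different ion selectivity. A count per gene pools the forms, and 22.3% of the 2591 exon bases of Cldn10 belong to every transcript. Cldn19 shares 90 exon bases with the antisense gene Gm12927, which had 12 to 49 reads per library, and Cldn3 shares 40 with the antisense gene Wbscr25, which had at most 8.

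Promoter sequence from RefSeq, covering 250 bases before the start in GRCm38.p6, was found for 9 of the 10 members in 12 windows, and none was found for Cldn8. The windows below are shown because Cldn10 alone serves both the proximal tubule and the thick ascending limb from 2 starts, and because Cldn4 and Cldn7 had the widest differences between replicates among the members above Cldn16 in level. Each is written 5′ to 3′ on the strand of the gene, and capitals mark matches on either strand to 4 motifs. The core of the site of HNF1, a factor of tubular epithelium, was searched as GTTAAT. The box bound by Sp1 and related factors, called the GC box here, was searched as GGGCGG. The TATA box, a core promoter element, was searched as TATAAA, and the site of Grainyhead-like factors, which act in epithelia, as AACNGGTT. No matches overlapped in the windows shown.
Cldn10, upstream start, chr14:118787621-118787870, plus strand: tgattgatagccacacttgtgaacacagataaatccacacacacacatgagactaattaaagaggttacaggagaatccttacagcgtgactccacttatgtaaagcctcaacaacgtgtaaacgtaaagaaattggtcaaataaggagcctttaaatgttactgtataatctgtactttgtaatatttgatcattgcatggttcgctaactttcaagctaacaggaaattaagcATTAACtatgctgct
Cldn10, downstream start, chr14:118854700-118854949, plus strand: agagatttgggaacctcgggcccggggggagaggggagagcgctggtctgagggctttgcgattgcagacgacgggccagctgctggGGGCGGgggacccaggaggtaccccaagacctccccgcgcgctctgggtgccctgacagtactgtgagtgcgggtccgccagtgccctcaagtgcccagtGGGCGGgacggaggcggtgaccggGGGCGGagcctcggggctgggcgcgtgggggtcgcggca
Cldn4, chr5:134946935-134947184, minus strand: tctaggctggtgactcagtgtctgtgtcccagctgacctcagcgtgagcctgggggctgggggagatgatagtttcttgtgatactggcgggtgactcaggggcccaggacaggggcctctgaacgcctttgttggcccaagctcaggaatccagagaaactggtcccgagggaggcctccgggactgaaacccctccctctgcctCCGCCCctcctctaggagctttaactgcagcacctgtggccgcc
Cldn7, upstream start, chr11:69964529-69964778, plus strand: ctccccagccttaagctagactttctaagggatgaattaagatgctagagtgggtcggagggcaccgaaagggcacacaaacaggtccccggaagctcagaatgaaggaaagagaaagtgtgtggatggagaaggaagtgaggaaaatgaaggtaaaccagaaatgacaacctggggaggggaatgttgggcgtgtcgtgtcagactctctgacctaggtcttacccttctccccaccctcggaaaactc

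The Cldn10 windows differed in composition, with 36.0% G and C before the upstream start and 72.4% before the downstream one. The upstream window held 1 HNF1 core, 15 to 10 bases before the RefSeq start, and the downstream window held 3 GC boxes. The upstream RefSeq start lies before the first Cldn10 transcript of the GENCODE annotation used for lengths, which starts at base 118787908. The Cldn4 window, with 62.0% G and C, held 1 GC box, and the Cldn7 window shown, with 51.2%, held no match. A second Cldn7 window, before a downstream start and not shown, had 60.0% G and C and held 1 GC box. Among the 12 windows of the members, 8 held a GC box, 2 the HNF1 core, 1 the Grainyhead-like site (Cldn5) and 1 the TATA box (Cldn2). Of the 8, 2 are windows of Cldn19 that overlap and hold the same GC boxes. Among 32851 promoter windows of the same length, the shares were 32.7%, 6.43%, 1.79% and 12.4%. These matches describe letters and were not tested as binding sites.

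Libraries held 9878776 to 12921925 counted read pairs, of which mitochondrially encoded genes took 49.5% to 61.5%. Zbp1, the targeted gene, had 94 and 125 reads in the WT libraries, 18 in Zbp1-KO 1 and 0 in Zbp1-KO 2. The count of 0 allows up to 0.323 CPM, counts scaled by library size, by counting error, and both Zbp1-KO libraries were below both WT libraries (log2 fold change of -3.64 ± 0.89, SE, adjusted p = 0.999, edgeR quasi-likelihood test). Replicates correlated at 0.952 in WT and 0.925 in Zbp1-KO over log2 CPM of all tested genes, and libraries of different genotype at 0.939 to 0.940. The between-replicate coefficient of variation common to all genes was 0.304.

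To compare levels between genes, CPM were divided by the length of merged exons in kilobases. Cldn10, the claudin of both proximal tubule and thick ascending limb, was the most abundant member at 23.5 ± 2.50 CPM per kb (SD over all 4 libraries). Cldn8, a collecting duct claudin, followed at 18.7 ± 3.60. Cldn3, Cldn5, Cldn4 and Cldn19 formed a middle group at 12.6 ± 1.34, 12.0 ± 1.18, 11.5 ± 3.46 and 9.91 ± 1.73. Cldn2 and Cldn7 stood at 6.58 ± 1.81 and 6.31 ± 2.71, Cldn16 at 3.27 ± 1.11 and Cldn1 at 1.06 ± 0.28. Ranges of neighbours in this order were separate at 2 places, between Cldn8 and Cldn3 (1.48-fold) and between Cldn16 and Cldn1 (3.09-fold). All other neighbours overlapped in range. Compared within each library, Cldn19 was above Cldn2 (1.51-fold in the means) and Cldn7 above Cldn16 (1.93-fold) in all 4 libraries. Cldn2 and Cldn7 changed places when the longest transcript was used as the length.

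**Figure D1:**
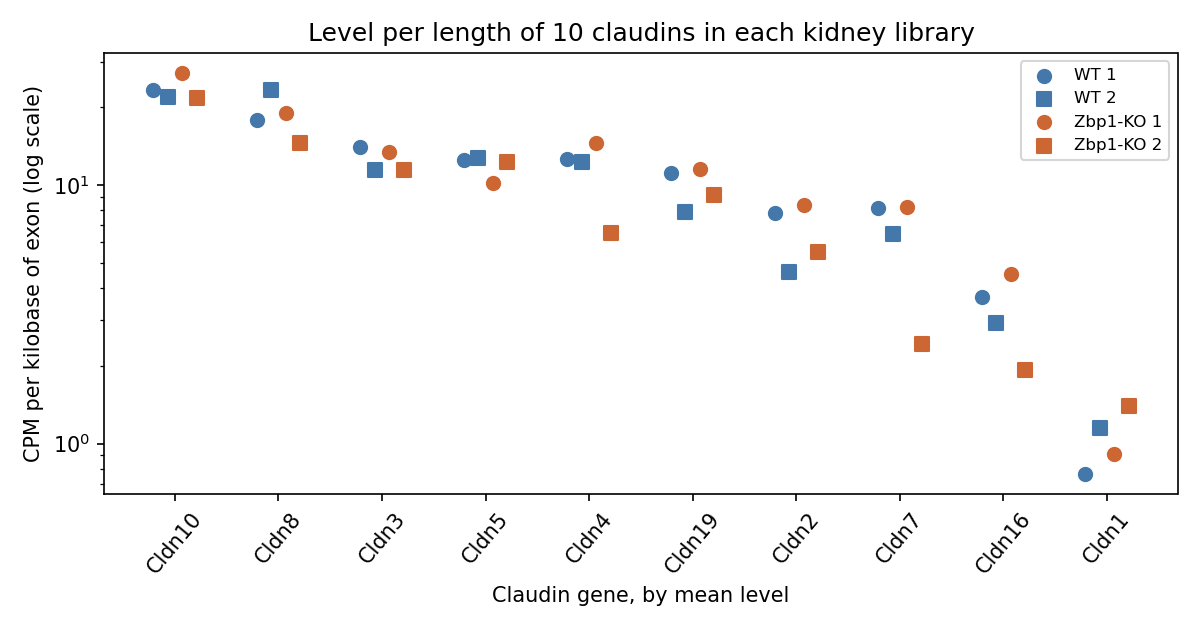
Level of each claudin in each library, in CPM per kb of merged exons on a log axis, with members ordered by their mean over the 4 libraries. Cldn10 was highest at a mean of 23.5 and Cldn1 lowest at 1.06, and the points of WT and Zbp1-KO overlapped for all members except Cldn5.

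The main comparison asked whether claudin expression differed between WT and Zbp1-KO kidneys after pristane. None of the 10 claudins passed the test in either direction. All 10 entered the fit, 0 were called higher and 0 lower at an adjusted p under 0.05, and every adjusted p was 0.999 (edgeR quasi-likelihood test, Benjamini-Hochberg over 14908 genes). Among all genes tested, 0.0134% were called, 0.0134% higher and 0% lower. The targeted gene Zbp1 was not among them (edgeR unadjusted p = 0.00153, adjusted p = 0.999), so the lack of a call does not show equal levels. Before adjustment, the members with p under 0.05 also numbered 0, beside 3.88% of all genes (1.91% higher and 1.97% lower). An exact test in edgeR and DESeq2 each called 0 members as well. Fitted log2 fold changes of Zbp1-KO over WT ran from -0.44 (Cldn7) to 0.27 (Cldn1) with a median of -0.03, and the median over all genes was -0.01. Of the members, 6 lay below 0, where 50.6% of all genes lay. Both Zbp1-KO libraries were outside both WT libraries for 1 member, Cldn5, which was lower. Such separation held for 32.3% of all genes, 16.0% higher and 16.3% lower.

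**Figure D2:**
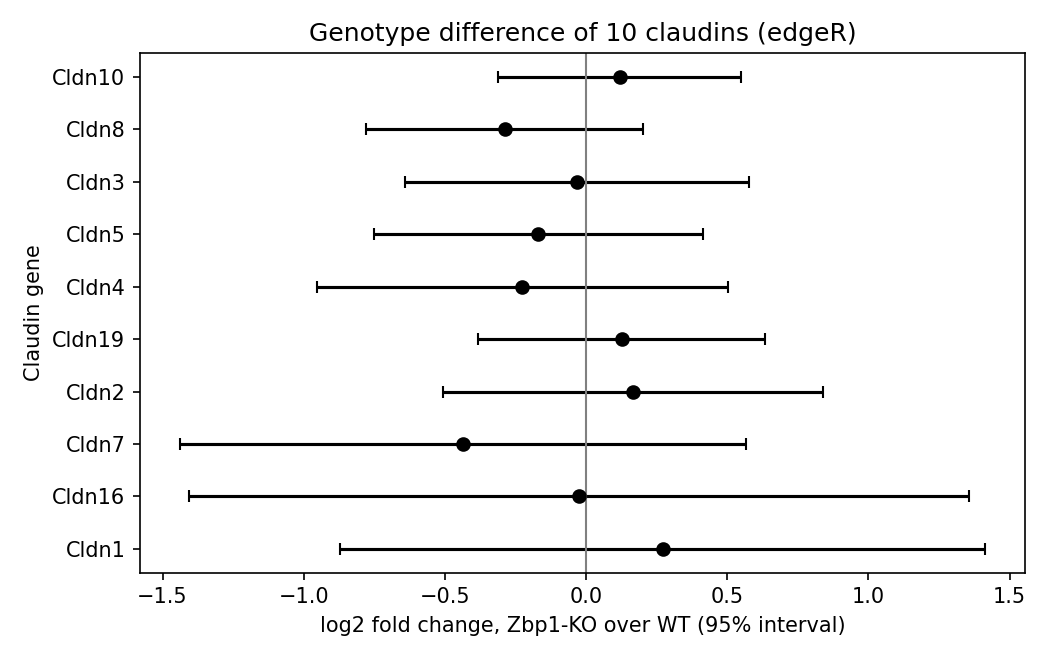
Fitted log2 fold change of Zbp1-KO over WT for each claudin, with its 95% confidence interval as a line. All 10 intervals cross 0, and they were narrowest for Cldn10 and widest for Cldn16.

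In the proximal tubule set, Cldn2, which forms a pore for sodium and water, was at 26.0 and 15.3 CPM in WT and at 27.9 and 18.3 CPM in Zbp1-KO. The first library of each genotype was high and the second low, and the genotypes overlapped. The difference was 0.17 ± 0.31 on the log2 scale, with a 95% interval from -0.51 to 0.84. Cldn10, summed over its forms, was at 60.3 and 56.7 CPM in WT and at 70.3 and 56.6 CPM in Zbp1-KO. WT 1, WT 2 and Zbp1-KO 2 were close together, while Zbp1-KO 1 stood above them and the groups overlapped. Cldn10 had the narrowest interval of the members, from -0.31 to 0.55 around 0.12 ± 0.20.

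Set against the mean of 8 proximal tubule markers on the log2 scale, Cldn2 was at -1.61 and -2.36 in WT and at -0.72 and -2.22 in Zbp1-KO. The difference of genotypes in this relative level was 0.51 and the groups overlapped (exact permutation test, two-sided, p = 0.667, where 2 against 2 libraries cannot go below 0.333). For Cldn10 the same measure differed by 0.45 (exact permutation p = 1.00). Without Zbp1-KO 1 the differences were -0.24 for Cldn2 and -0.16 for Cldn10, and without Zbp1-KO 2 they were 1.26 and 1.06. Zbp1-KO 1 was highest in both. The summed markers of the segment were lowest in that library, at 1107 CPM beside 1534 to 1738 CPM in the others, and the glucose transporter Slc5a2 was at 8.48 CPM there beside 33.9 to 45.0 CPM. As a deviation from its average over the 4 libraries, the marker mean was 0.16 and 0.17 in WT, -0.62 in Zbp1-KO 1 and 0.29 in Zbp1-KO 2. The relative level is the claudin minus this mean, so it reflects the lower markers of Zbp1-KO 1 in part. Cldn2 and Cldn10 were themselves highest in Zbp1-KO 1, at 27.9 and 70.3 CPM. Why the markers were lower was not tested.

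In the thick ascending limb, claudins 16 and 19 form together the paracellular path for calcium and magnesium. Cldn16 was at 4.34 and 3.42 CPM in WT and at 5.31 and 2.26 CPM in Zbp1-KO. Its highest and lowest values were both in Zbp1-KO. The difference was -0.02 ± 0.63, and the interval, -1.41 to 1.36, was the widest among the members, on 21 to 72 reads per library. Cldn19 was at 47.4 and 33.4 CPM in WT and at 49.2 and 39.0 CPM in Zbp1-KO. WT 2 was lowest and the groups overlapped, with a difference of 0.13 ± 0.23 and an interval from -0.38 to 0.63.

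Cldn16 made up 8.39% and 9.28% of the reads of the pair Cldn16 and Cldn19 in WT, 9.74% in Zbp1-KO 1 and 5.48% in Zbp1-KO 2. The exact binomial interval of the last value was 3.43% to 8.26%, which overlapped the intervals of all the other libraries (6.36% to 10.8% in WT 1, 6.71% to 12.4% in WT 2 and 7.70% to 12.1% in Zbp1-KO 1). Against 7 markers of the segment, the relative level differed between genotypes by 0.05 for Cldn10, by -0.18 for Cldn16 and by 0.08 for Cldn19, and the groups overlapped for each (exact permutation p = 0.667, 1.00 and 1.00). The relative level of Cldn10 to these markers spanned -1.44 to -1.31 over the 4 libraries, the narrowest span among the 11 ratios made. The markers themselves had a median log2 fold change of 0.11. They were led by the sodium-potassium-chloride cotransporter Slc12a1 (707, 460, 763 and 495 CPM in WT 1, WT 2, Zbp1-KO 1 and Zbp1-KO 2). Their sum was highest in Zbp1-KO 1 and lowest in Zbp1-KO 2, at 1709, 1460, 1919 and 1400 CPM in the same order.

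In the distal nephron and collecting duct, Cldn8, which interacts with Cldn4 in a path for chloride, was at 42.1 and 54.9 CPM in WT and at 44.9 and 34.4 CPM in Zbp1-KO. WT 2 was high, Zbp1-KO 2 was low, and the groups overlapped. The difference was -0.29 ± 0.23 with an interval from -0.78 to 0.20. Cldn3, a barrier-forming claudin, was at 17.7 and 14.5 CPM in WT and at 17.0 and 14.4 CPM in Zbp1-KO. These values differed little between genotypes (-0.03 ± 0.28, interval -0.64 to 0.58).

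Cldn4 was at 22.8 and 22.3 CPM in WT and at 26.5 and 11.8 CPM in Zbp1-KO. The WT libraries were close together, and the Zbp1-KO libraries lay on either side of them. The fitted difference of -0.23 ± 0.33 (interval -0.95 to 0.50) therefore averaged a higher and a lower library. Cldn7, found along the basolateral membrane as well as in junctions, was at 15.8 and 12.6 CPM in WT and at 16.0 and 4.74 CPM in Zbp1-KO. Zbp1-KO 1 was next to WT 1, and Zbp1-KO 2 stood apart below the rest. The difference was -0.44 ± 0.46 with an interval from -1.44 to 0.57.

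Markers of principal cells, the collecting duct cells that reabsorb sodium and water, had an unadjusted p under 0.05 with a fold change below 0 for 3 of the 8 tested (Scnn1b, Aqp2 and Aqp3), beside 1.97% of all genes, and none was called. The median log2 fold change of the list was -0.17. The sodium channel subunit Scnn1b was at 44.2 and 41.3 CPM in WT and at 26.1 and 25.5 CPM in Zbp1-KO (log2 fold change -0.73 ± 0.21, adjusted p = 0.999 by edgeR). The water channels Aqp2 and Aqp3 differed by -0.64 ± 0.20 and -0.58 ± 0.23. Other markers differed less, from -0.23 for Scnn1g to 0.32 for Hsd11b2, with Aqp4 at -0.10, Gata3 at -0.07 and Fxyd4 at -0.03. The summed list was at 1511 and 1623 CPM in WT and at 1329 and 1044 CPM in Zbp1-KO, and Aqp2 carried most of the sum. Without Aqp2 the 7 other tested genes summed to 607 and 561 CPM in WT and to 599.5 and 513 CPM in Zbp1-KO, and the groups overlapped. Relative to the mean of these 8 markers, Cldn3 was at -2.38 and -2.53 in WT and at -2.29 and -2.18 in Zbp1-KO. Both Zbp1-KO values were above both WT values, by 0.22 on average (exact permutation p = 0.333, the smallest possible). Cldn3 itself differed by -0.03. As a deviation from its average over the 4 libraries, the marker mean was 0.19 and 0.06 in WT and 0.04 and -0.29 in Zbp1-KO. The relative level is the claudin minus this mean, so the higher relative level of Cldn3 reflects the lower markers. Why the markers were lower was not tested. For Cldn8, Cldn4 and Cldn7 the relative levels differed by -0.04, -0.09 and -0.40, and the groups overlapped (exact permutation p = 1.00 for each).

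**Figure D3:**
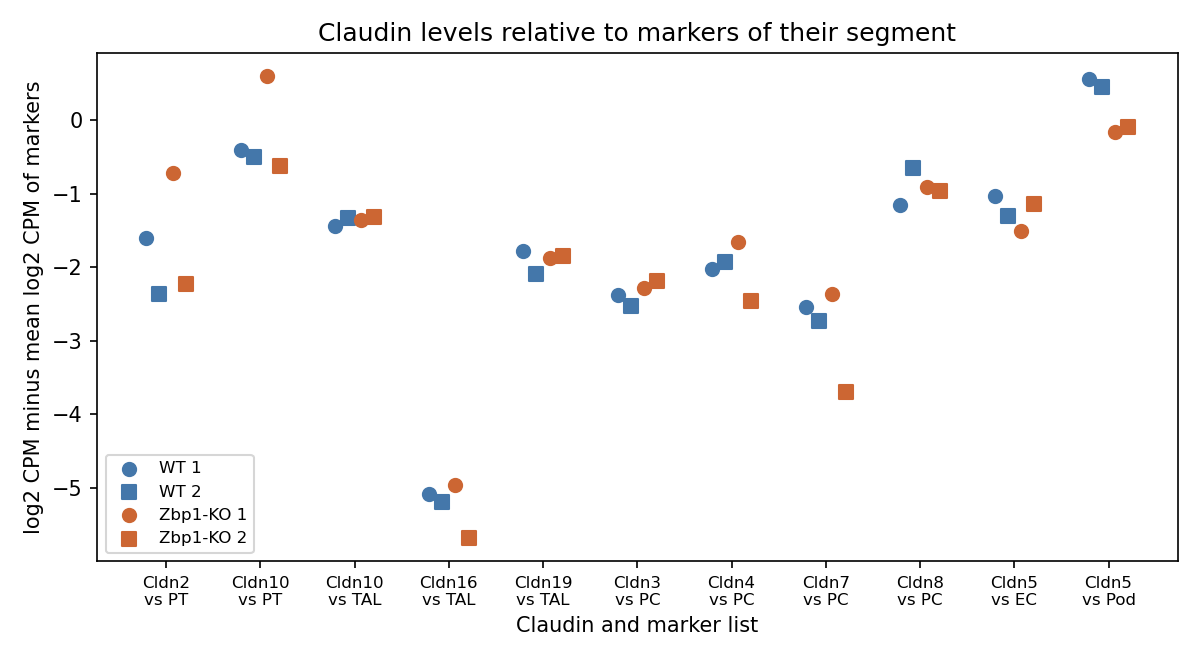
Level of each claudin minus the mean of the markers of a cell type or segment that carries it, both as log2 of CPM plus 0.5, by library. Groups overlapped for all ratios except Cldn3 to principal cell markers, where both Zbp1-KO libraries were higher, and Cldn5 to podocyte markers, where both were lower.

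Cldn5, the claudin of endothelial junctions, was at 17.8 and 18.0 CPM in WT and at 14.5 and 17.5 CPM in Zbp1-KO. Both Zbp1-KO values were below both WT values, although Zbp1-KO 2 was within 1 CPM of them. The difference was -0.17 ± 0.27 (interval -0.75 to 0.41). Relative to 9 endothelial markers, it stood at -1.03 and -1.31 in WT and at -1.51 and -1.14 in Zbp1-KO, and the groups overlapped (exact permutation p = 0.667). Relative to 6 podocyte markers, it stood at 0.56 and 0.45 in WT and at -0.16 and -0.09 in Zbp1-KO. The groups were separate by this measure, with a difference of -0.63 (exact permutation p = 0.333, the smallest possible).

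None of the 6 podocyte markers was called. All 6 had a fitted fold change above 0, with a median of 0.46, and their sum was at 106 and 107 CPM in WT and at 133 and 155 CPM in Zbp1-KO. The actin-associated Synpo was at 33.1 and 36.0 CPM in WT and at 48.8 and 59.5 CPM in Zbp1-KO (0.65 ± 0.21, adjusted p = 0.999 by edgeR). The endothelial list had a median of 0.03. Cldn1, of the parietal epithelium, was the least abundant member at 3.70 and 5.56 CPM in WT and at 4.42 and 6.79 CPM in Zbp1-KO. The second library of each genotype was the higher, the groups overlapped, and the difference was 0.27 ± 0.52 (interval -0.87 to 1.41).

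The spread between the Zbp1-KO replicates, examined after the values had been seen, was larger for several claudins than any difference of genotype. Zbp1-KO 1 exceeded Zbp1-KO 2 3.38-fold for Cldn7, 2.35-fold for Cldn16 and 2.23-fold for Cldn4. Among all tested genes, 4.37%, 7.15% and 7.80% had a ratio at least as large. For the other members the ratio ran from 0.652 (Cldn1) to 1.52 (Cldn2). The median over the 10 members was 1.28, beside 1.00 over all genes. Ratios of WT 1 to WT 2 ran from 0.665 to 1.70 with a median of 1.14. The WT ratio was the farther from 1 for Cldn2 (1.70), Cldn19 (1.42) and Cldn3 (1.22).

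The low values of Cldn7 and Cldn4 in Zbp1-KO 2 lay outside the counting intervals of the other libraries. Cldn7 had 44 reads there, an exact Poisson interval of 3.44 to 6.36 CPM, beside 13.9 to 18.3 CPM in Zbp1-KO 1 and 10.6 to 14.8 CPM in WT 2. Cldn4 had 110 reads, an interval of 9.74 to 14.3 CPM, beside 19.7 to 25.2 CPM in WT 2. For Cldn16 the interval, 1.40 to 3.46 CPM on 21 reads, overlapped that of WT 2, 2.44 to 4.66 CPM. These intervals cover counting error alone.

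Across the members, Zbp1-KO 2 was the lowest of the 4 libraries for 6 of 10 and Zbp1-KO 1 the highest for 6 of 10, beside 27.2% and 26.5% of all genes. For 4 members, Cldn4, Cldn7, Cldn10 and Cldn16, the Zbp1-KO libraries lay on both sides of the WT pair with Zbp1-KO 1 high, which held for 10.5% of all genes. Some of these orders were near ties. Cldn10 was at 56.55 CPM in Zbp1-KO 2 and 56.70 CPM in WT 2, and Cldn3 at 14.43 and 14.45 CPM. Cldn7 was at 16.00 CPM in Zbp1-KO 1 and 15.84 CPM in WT 1. Genes of 1 tissue vary together, so the members are not independent of each other. Without Zbp1-KO 1, Cldn7 differed from WT by -1.59 and Cldn4 by -0.94 (adjusted p = 0.297 and 0.510, edgeR), and 9 of 10 members were lower. Without Zbp1-KO 2, the same genes differed by 0.16 and 0.22, and 3 of 10 members were lower. The direction of Cldn4 and Cldn7 thus depended on which library stood for the genotype.

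**Figure D4:**
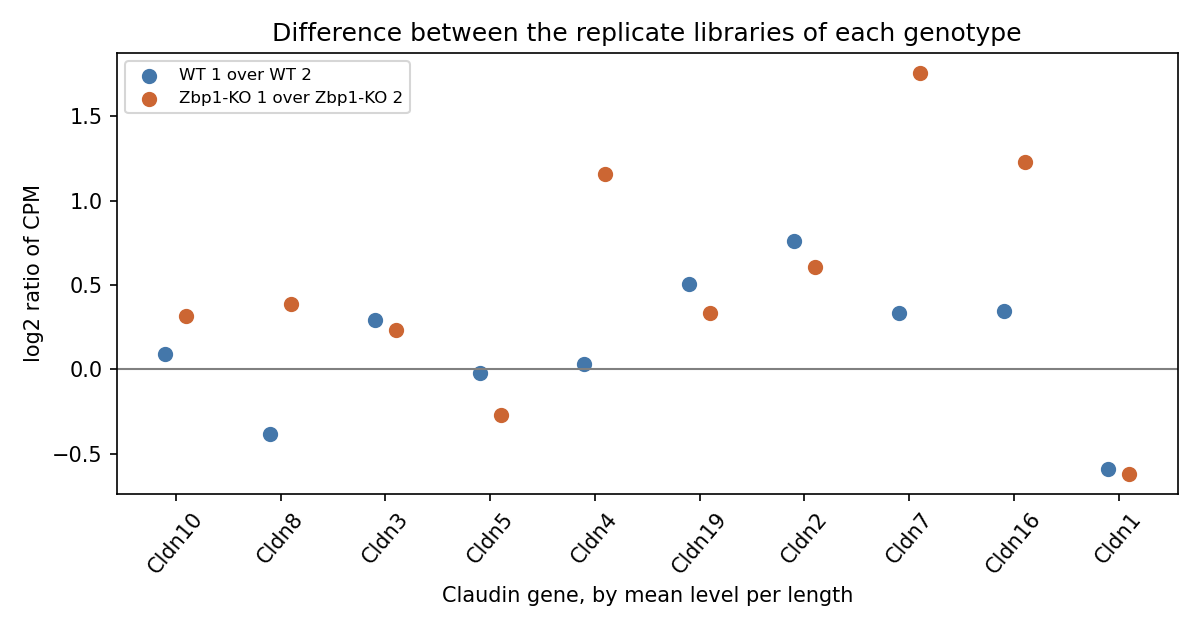
The log2 ratio of CPM in replicate 1 to replicate 2 within each genotype for each claudin, where the line at 0 means equal levels. As a linear fold, the ratio in Zbp1-KO ran from 0.652 for Cldn1 to 3.38 for Cldn7, and in WT from 0.665 to 1.70.

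Ratios among collecting duct genes, also chosen after the values were seen, placed the low library in context. Cldn4 was 56.3% and 60.7% of the reads of Cldn4 and Cldn3 in WT, 61.0% in Zbp1-KO 1 and 45.1% in Zbp1-KO 2, where the exact interval was 38.7% to 51.6%. Cldn7 was 17.4% and 12.7% of the reads of Cldn7 and Epcam in WT, 15.7% in Zbp1-KO 1 and 8.71% in Zbp1-KO 2 (6.40% to 11.5%). Epcam encodes an adhesion molecule that binds and stabilises claudin 7. The Cldn7 interval in Zbp1-KO 2 overlapped that of WT 2, 10.9% to 14.8%. Cldn4 was 35.1% and 28.9% of the reads of Cldn4 and Cldn8 in WT, 37.1% in Zbp1-KO 1 and 25.6% in Zbp1-KO 2, where the interval, 21.6% to 30.0%, overlapped that of WT 2, 26.0% to 32.0%. The share of Cldn4 was thus apart from all other libraries in Zbp1-KO 2 only against Cldn3. There the gap was narrow, as the interval of WT 1 began at 51.9%, and these intervals cover counting error alone. The principal cell sum was lowest in Zbp1-KO 2, with and without Aqp2. Urothelial markers, which were looked at because Cldn4 and Cldn7 are also made in the lining of the renal pelvis, summed to 119 and 121 CPM in WT, 147 CPM in Zbp1-KO 1 and 100 CPM in Zbp1-KO 2. All 6 were detected and the sum was carried largely by Psca, at 81.0, 79.2, 108 and 63.4 CPM in the same order. Of the 6, 3 were lowest in Zbp1-KO 2 and 3 highest in Zbp1-KO 1. Upk1b ran the other way within Zbp1-KO, at 12.5 CPM in Zbp1-KO 1 and 16.9 CPM in Zbp1-KO 2. Upk2 was above both WT libraries in both, at 8.04 and 7.76 CPM. The part of either cell type in the spread of Cldn4 and Cldn7 was not tested.

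Of the 13 other claudin genes, 2 had enough reads to be tested and neither was called. Cldn12 was at 19.1 and 14.3 CPM in WT and at 14.5 and 8.94 CPM in Zbp1-KO (-0.50 ± 0.33). Cldn15 was at 18.3 and 13.7 CPM in WT and at 19.5 and 15.8 CPM in Zbp1-KO (0.14 ± 0.28). Both groups overlapped. Cldn13, Cldn17, Cldn18, Cldn20, Cldn22 and Cldn24 had 0 reads in every library, which allows at most 0.221 to 0.323 CPM in each. Cldn14, whose product inhibits the claudin 16 and 19 path, had 1 read in all.

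Partners of the claudins in the junction, such as the scaffold Tjp1, occludin (Ocln) and the junctional adhesion molecules, gave no call either. Of 24 genes tested, 0 passed in either direction, also when p was left unadjusted, and the median log2 fold change was -0.14 with 16 below 0. Cgnl1, which links junctions to the cytoskeleton, was the most abundant in CPM and differed by -0.08 ± 0.23. F11r, a junctional adhesion molecule, had the smallest unadjusted p and was at 40.3 and 42.8 CPM in WT and at 53.6 and 50.2 CPM in Zbp1-KO (0.32 ± 0.19). Both Zbp1-KO libraries were above both WT libraries for 1 of 24 genes, F11r, and below them for 4 of 24, beside 16.0% and 16.3% of all genes. Among the latter were the scaffold proteins Magi1 (-0.34 ± 0.25), Magi3 (-0.33 ± 0.29) and Tjap1 (-0.42 ± 0.35). Ocln had the pattern of Cldn4, at 9.01 and 9.49 CPM in WT and at 13.1 and 5.60 CPM in Zbp1-KO. It was named after the values were seen, and the pattern held for 10.5% of all genes. Ildr2 and Jam3 had the reverse pattern, with Ildr2 at 3.47 CPM in Zbp1-KO 1 and 11.7 CPM in Zbp1-KO 2. Among the 24 genes, Zbp1-KO 2 was lowest for 7 and Zbp1-KO 1 highest for 6, beside 27.2% and 26.5% of all genes.

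Of 17 genes that regulate claudins or epithelial adhesion, 0 were called and 0 passed at an unadjusted p, with a median of -0.03. Grhl2, a Grainyhead-like factor known to drive Cldn4 in distal epithelia, was at 15.9 and 13.3 CPM in WT and at 13.2 and 6.36 CPM in Zbp1-KO. The difference was -0.57 ± 0.37. Zbp1-KO 2 was lowest, which held for 11 of the 17 genes, beside 27.2% of all genes. In Zbp1-KO 1, Grhl2 was just below both WT libraries, whereas Cldn4 was above both. Any part of Grhl2 in the Cldn4 values was not tested. Cdh16, the kidney-specific cadherin, was the most abundant of these genes and stayed within 451 to 502 CPM in every library.

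The fat, T cell and immediate-early lists had larger median differences than any claudin, and 1 of their genes was called. Cfd, a fat cell product, was called higher in Zbp1-KO (adjusted p = 0.00889, edgeR), and the fat list summed to 17.3 and 25.2 CPM in WT and at 104 and 88.2 CPM in Zbp1-KO. T cell markers summed to 8.44 and 5.99 CPM in WT and at 19.2 and 15.1 CPM in Zbp1-KO, with a median log2 fold change of 1.25. All 8 immediate-early genes had a fold change below 0, with a sum of 405 and 131 CPM in WT and at 88.6 and 90.5 CPM in Zbp1-KO. The distal convoluted and connecting tubule, intercalated cell, tubular injury and macrophage lists had medians of 0.09, 0.01, 0.07 and 0.27 with 0 genes called. Leaving out 1 library moved these from -0.24 to 0.23, -0.14 to 0.20, -0.29 to 0.37 and 0.08 to 0.66. The part of these lists in any claudin value was not tested.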

How the data were processed

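Whole-kidney poly(A) RNA was sequenced as paired reads of 150 bases. Per the study's methods and the submitters' processing notes, the authors trimmed with Trimmomatic, aligned to mm10 with HISAT2, kept uniquely mapped pairs and counted with featureCounts. Their versions, the annotation release and the strand setting of the counting are not given in the sources used here. The deposited values are raw counts per Ensembl gene, 1 table per library, of which 54495 identifiers matched GENCODE M21 and 37 did not.

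Counts were analysed in R 4.3.3 with edgeR 4.0.16. Genes were filtered by filterByExpr (minimum count 10, minimum total 15), leaving 14908, scaled by TMM and fitted by genotype with the quasi-likelihood test. Fold changes are Zbp1-KO over WT, with SE derived from the F statistic. CPM use TMM-scaled library sizes, and relative levels use log2 of CPM plus 0.5. Single ratios were compared by exact permutation of the 4 libraries. The fit was tested on simulated data. Alternatives included DESeq2 1.42.0. At 2 libraries per genotype, precision is limited by the spread between libraries, and counting intervals cover counting error only.

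The naming rule covered all 10 members, Zbp1, other claudins averaging 1 CPM and any called gene. In each other list it covered the genes with the smallest p and the highest mean, but several marker lists were described without them. Of the smallest-p genes left out, Krt19 (tubular injury, 0.73), Cd2 (T cell, 2.81), Pvalb (distal convoluted tubule, -0.70) and Slc22a6 (proximal tubule, -0.49) had an unadjusted edgeR p under 0.05. The values are log2 fold changes, and none of these genes was called. Genes outside that rule were named after their values were seen. The members and lists were chosen with earlier results of these data known.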

Additional observations from a re-analysis of the deposited data

How the results depend on the processing

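None of the 10 claudins was called under any of the 13 alternatives, and their 90 log2 fold changes under the 9 that kept all libraries stayed on the same side of 0, with a smallest adjusted p of 0.962. Leaving out 1 library, where the lone library of a genotype was assumed to vary like the other group, moved the median of the claudins between -0.17 and 0.19. The direction turned for Cldn1, Cldn3 and Cldn16 without WT 1, for Cldn2 and Cldn19 without WT 2, for Cldn2, Cldn10 and Cldn19 without Zbp1-KO 1, and for Cldn1, Cldn3, Cldn4, Cldn7 and Cldn16 without Zbp1-KO 2. The full ranges were -0.072 to 0.59 for Cldn1, -0.18 to 0.59 for Cldn2, -0.18 to 0.11 for Cldn3, -0.94 to 0.22 for Cldn4, -0.32 to -0.04 for Cldn5, -1.59 to 0.16 for Cldn7, -0.50 to -0.09 for Cldn8, -0.056 to 0.26 for Cldn10, -0.78 to 0.44 for Cldn16 and -0.11 to 0.39 for Cldn19. The cause was not tested. Leaving out 1 library placed Cldn7 relative to principal cell markers between -1.06 and 0.26, Cldn3 between 0.15 and 0.30, and Cldn5 relative to podocyte markers between -0.69 and -0.57. With a prior of 2 CPM the last was -0.56. With 1 library left out, the marker medians ran from -0.20 to 0.32 for the thick ascending limb, -0.17 to 0.11 for endothelium, -0.47 to -0.07 for principal cells and 0.41 to 0.51 for podocytes.

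Over all genes, 2 were called higher and 0 lower in the reported fit. The counts were 14 and 27 when every gene with at least 1 count was kept, 6 and 8 by the exact test of edgeR, 5 and 4 by DESeq2, and 1 lower without mitochondrial genes, at a mean of at least 1 CPM and in the robust fit. Leaving out 1 library gave 0 to 9 higher and 0 to 28 lower. In the marker lists, 5 immediate-early genes were called lower with every gene kept and 1, Egr1, by the exact test, beside 0 to 1 higher and 0 to 5 lower when 1 library was left out.

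Over all tested genes, deviations of same-numbered libraries correlated at -0.00389, which does not decide the matter for single genes. Among the claudins, replicate 1 exceeded replicate 2 for 8 members in Zbp1-KO and for 7 in WT. A fit with a replicate block called 4 genes higher and 7 lower, among them 1 marker (Egr1) and 0 claudins. With the block, Cldn7 differed by -0.65 and Cldn4 by -0.33. Depth limited Cldn16 and Cldn1 most, at 21 to 72 reads per library.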
